A study of Mus musculus with 8 samples.

Results

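A set of 9 genes of dietary fat absorption were followed in gut tissue of hypoxic mice that did or did not receive nitrate: Fabp1, Fabp2, Cd36, Acsl5, Mogat2, Dgat1, Dgat2, Plin2 and Scarb1. They were picked by symbol, and all 9 were found once each among the 55421 genes of the count table. RNA of small intestine from mice of wild-type genotype was sequenced in 8 libraries. All mice had been held at 7% oxygen for 7 days; 4 libraries (Hypoxia) came from mice with no further treatment, and 4 (Hypoxia+Nitrate) from mice also given 4 mM nitrate, a salt ion found in leafy vegetables and a source of nitric oxide in the body. No library came from mice at normal oxygen, so every value below is from hypoxic tissue. The sources used here do not give strain, sex, age or gut segment, nor whether each library came from its own animal; p-values therefore measure the spread between these libraries, which may be technical.

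In the gut lumen, lipases split dietary triglyceride into fatty acids and monoacylglycerol, which enterocytes, the absorptive cells of the villus, take up. Inside the cell fatty acid binding proteins carry the fatty acids, acyl-CoA synthetases activate them, and acyltransferases on the endoplasmic reticulum join them to monoacylglycerol to rebuild triglyceride. The new fat leaves the cell in chylomicrons or waits in cytosolic lipid droplets.

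The libraries differed in more than their treatment. Total counts ran from 5345377 to 21835865 in Hypoxia and from 8662279 to 63943036 in Hypoxia+Nitrate. Odorant, vomeronasal and trace-amine receptor genes, taken here to be mostly silent in gut, held 11.99 to 20.7 counts per kb of exon in Hypoxia and 2.96 to 12.7 in Hypoxia+Nitrate. Used as an estimate of background, these densities came to 39.0% to 63.7% of nuclear protein-coding counts for Hypoxia libraries, and to 2.74% to 23.2% for those with nitrate. Within Hypoxia+Nitrate, replicates 1 and 4 stood apart from 2 and 3, with 64.0% and 49.3% of counts on protein-coding genes of the mitochondrial genome, against 7.31% and 6.90%; in Hypoxia that share was 0.423% to 1.06%. Counts on a ribosomal DNA locus made up 75.7% of Hypoxia 1 and 73.7% of Hypoxia 2, the 2 Hypoxia libraries with the most Fabp1, but 7.06% of Hypoxia 3 and 45.0% of Hypoxia 4; with nitrate the range was 2.33% to 22.0%. The part of these library differences in the results was not tested. The background and the treatment cannot be told apart by group. Expected background is therefore given for every gene of the set, but only for some of the further genes and marker lists.

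Of the 9 genes, 7 rose in Hypoxia+Nitrate: Fabp1, Fabp2, Acsl5, Mogat2, Dgat1, Dgat2 and Plin2. Cd36 and Scarb1 did not pass the test (edgeR quasi-likelihood test, adjusted p of 0.05 over 35431 genes tested, where 11.7% of all genes were called higher and 12.7% lower). With TMM scaling and all 8 libraries, 0 of the 9 were called lower by edgeR (8 higher and 0 lower at an unadjusted p of 0.05). DESeq2 also called 0 of the 9 lower, where 17579 of 54176 genes were. The same held for limma-voom, where 11948 of 35431 genes were called lower. The median log2 fold change of the 9 was 3.67, against -0.58 over all genes tested. In the 7 genes that rose, every Hypoxia+Nitrate CPM after TMM scaling lay above every Hypoxia CPM, as it did for 12.0% of all genes tested. For Plin2 the groups overlapped by total counts. The direction held for these 7 with TMM, RLE, upper-quartile and library size scaling, but on a scale set by epithelial genes 5 of them had negative log2 fold changes, and Cd36 and Scarb1 were called lower there. All 9 passed the filter on low counts. In bulk tissue, fewer enterocytes and less RNA per enterocyte cannot be told apart.

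**Figure D1:**
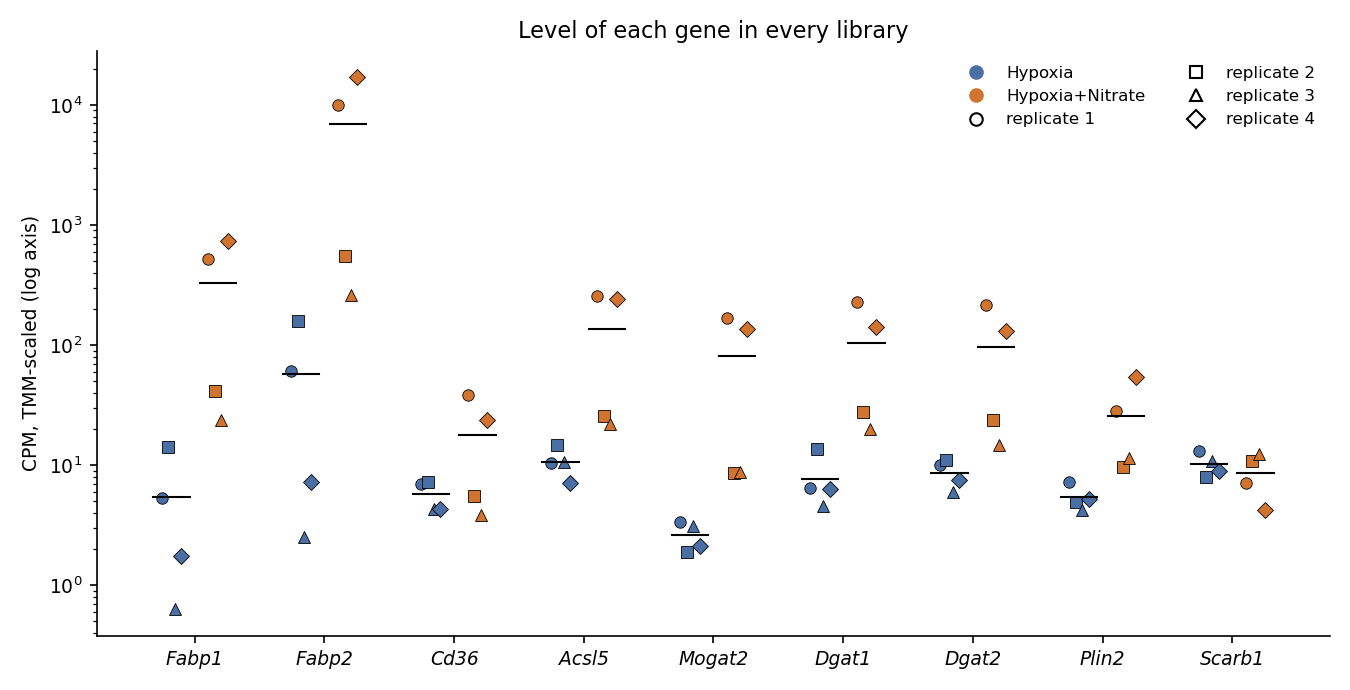
Level of each gene (CPM after TMM scaling, log axis) in the 4 Hypoxia libraries (blue) and the 4 Hypoxia+Nitrate libraries (orange), with symbols for the replicate number and a black line at the group mean. Groups do not overlap for 7 genes; in 8 genes Hypoxia+Nitrate 1 and 4 sit above 2 and 3, and in Scarb1 below them.

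The calls moved with single libraries, for the 9 as for all genes. Without Hypoxia 1, 1 of the 9 was called higher (Mogat2, adjusted p = 0.0495, edgeR), where 1.95% of all genes were. The number was 2 without Hypoxia 4 (4.23% of all genes), 3 without Hypoxia 3 (4.16%) and 5 without Hypoxia 2 (7.06%). It was 6 without Hypoxia+Nitrate 1 (9.09%), 7 without Hypoxia+Nitrate 4 (7.65%), 8 without Hypoxia+Nitrate 2 (14.3%) and 8 without Hypoxia+Nitrate 3 (13.1%). Without Hypoxia 1, the adjusted p of the 6 genes that dropped out lay between 0.0575 and 0.11, while their log2 fold changes ran from 2.42 for Plin2 to 6.94 for Fabp2. Without Hypoxia+Nitrate 1 and 4 together, 4 of the 9 passed (10.1% of all genes), and the median log2 fold change was 1.24.

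With TMM scaling, the fatty acid binding proteins had the largest fold changes of the 9. Fabp2 (ENSMUSG00000023057, GRCm38 chromosome 3, 122895072 to 122899506, plus strand) encodes the intestinal form, and Fabp1 (ENSMUSG00000054422, chromosome 6, 71199827 to 71205023, plus strand) the liver form, which enterocytes also make. Fabp2 stood at 61.2, 159, 2.53 and 7.23 CPM across Hypoxia replicates 1 to 4, and at 10014, 553, 262 and 16962 CPM across those of Hypoxia+Nitrate. The Hypoxia values spanned a wide range, with replicates 1 and 2 high and 3 and 4 low, yet the lowest Hypoxia+Nitrate library still lay above the highest Hypoxia library. The mean rose from 57.5 ± 72.7 to 6948 ± 8068 CPM (SD, n = 4 per group; log2 fold change 6.92, SE 2.09, edgeR adjusted p = 0.0350). Fabp2 lost its call in 13 of 26 alternatives. Its edgeR adjusted p was 0.0858 with the replicate block, 0.0598 without mitochondrial and ribosomal DNA genes, 0.0658 with nuclear protein-coding genes only, and 0.0543 to 0.11 without any 1 Hypoxia library. Fabp1 stood at 5.34, 14.1, 0.632 and 1.75 CPM across Hypoxia replicates 1 to 4, and at 517, 41.5, 23.7 and 738 CPM across those of Hypoxia+Nitrate. The same Hypoxia libraries, 1 and 2, were the high ones, and the groups again did not overlap. Fabp1 rose by 5.92 on the log2 scale (SE 1.41, edgeR adjusted p = 0.0152).

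Both genes stood clear of the background in most libraries. Fabp2 counts were 52.5, 189, 2.40 and 7.29 times the expected background in Hypoxia 1 to 4 and at least 423 times in each Hypoxia+Nitrate library. Fabp1 held 80, 194, 12 and 29 counts in Hypoxia 1 to 4, which is 7.99, 29.3, 1.05 and 3.07 times the expected background. In Hypoxia 3, then, the Fabp1 count could not be told from background. With the expected background subtracted and limma-voom in place of edgeR, Fabp2 was the 1 member of the 9 that passed (log2 fold change 5.59, SE 1.62, adjusted p = 0.0487), where 4.23% of genes were called higher. Fabp1 did not pass there (log2 fold change 5.19, SE 2.20, adjusted p = 0.138).

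Promoter sequence was at hand for 5 of the 9 genes (RefSeq, build GRCm38.p6, 300 bases across the transcription start). The sequences of 3 are shown, because, with TMM scaling, Fabp1 and Fabp2 had the largest rises of the 9 and Plin2 the smallest among those that rose; bases are 5′ to 3′ on the gene's strand and capitals mark motif matches. The motifs searched on both strands were CAAAGT, the core recognised by HNF4 factors, AGGTCA, the half-site of nuclear receptors such as the PPARs, AGATAA, bound by GATA factors, and TATAAA. The direct repeat of the half-site spaced by 1 base, the classic PPAR element, was searched too; it can overlap the half-site. Only exact copies of both half-sites were counted, so an imperfect repeat, as many PPAR elements are, would be missed. The exact repeat was in none of the 5 promoters and in 0.0396% of 32851 promoters of this length.
Fabp1 promoter, chr6:71199629-71199928, plus strand: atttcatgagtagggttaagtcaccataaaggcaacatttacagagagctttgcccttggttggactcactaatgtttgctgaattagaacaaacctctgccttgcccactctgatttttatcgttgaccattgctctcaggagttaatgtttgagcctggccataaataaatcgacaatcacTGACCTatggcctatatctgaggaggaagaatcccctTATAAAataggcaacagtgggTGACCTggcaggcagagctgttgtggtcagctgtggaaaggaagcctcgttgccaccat
Fabp2 promoter, chr3:122894822-122895121, plus strand: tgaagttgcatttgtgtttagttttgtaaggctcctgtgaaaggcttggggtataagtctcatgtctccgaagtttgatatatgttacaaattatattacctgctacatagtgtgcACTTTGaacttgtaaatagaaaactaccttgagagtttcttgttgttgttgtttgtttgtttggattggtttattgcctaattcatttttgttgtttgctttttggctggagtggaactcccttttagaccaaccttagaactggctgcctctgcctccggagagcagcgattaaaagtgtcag
Plin2 promoter, chr4:86670010-86670309, minus strand: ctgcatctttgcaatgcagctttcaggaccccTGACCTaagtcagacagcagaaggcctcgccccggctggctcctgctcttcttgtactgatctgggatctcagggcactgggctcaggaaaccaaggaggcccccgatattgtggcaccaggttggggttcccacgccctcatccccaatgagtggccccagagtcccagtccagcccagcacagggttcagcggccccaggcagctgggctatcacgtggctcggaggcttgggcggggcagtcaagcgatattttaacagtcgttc
Fabp1 held the half-site, in reverse complement, with first bases at -67 and -9 from the start, and TATAAA at -30. Fabp2 held the HNF4 core in reverse complement at -134. Plin2 held a half-site in reverse complement at -218. Of all 32851 promoters, 16.3% held the half-site, 14.4% the HNF4 core, 13.6% TATAAA and 11.2% AGATAA, so single matches are common; AGATAA was in none of the 5. Of the promoters not shown, that of Cd36, which did not pass the test, held the HNF4 core at -122 and a half-site in reverse complement at -228, and Acsl5 held no match. Both windows lie inside the annotated gene, from 17835847 to 17836146 for Cd36 and from 55253119 to 55253418 for Acsl5. Whether gut tissue uses these starts was not tested.

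Neither of the receptors at the cell surface, Cd36 and Scarb1, passed the test. Cd36 (ENSMUSG00000002944, chromosome 5, 17781690 to 17888801, minus strand), a scavenger receptor that binds long-chain fatty acids and is also made by endothelium, macrophages and fat cells, stood at 7.01, 7.27, 4.32 and 4.34 CPM in Hypoxia 1 to 4. In Hypoxia+Nitrate 1 to 4 Cd36 stood at 38.5, 5.52, 3.86 and 23.7 CPM. On the TMM scale, replicates 1 and 4 were above all Hypoxia libraries, replicate 2 lay among them and replicate 3 below them. Cd36 missed the threshold (log2 fold change 1.64, SE 0.688, edgeR adjusted p = 0.100). It passed without Hypoxia+Nitrate 2 (1.98), without Hypoxia+Nitrate 3 (2.15), without both of them (2.31), or with limma-voom quality weights (1.89), and was at -0.22 without Hypoxia+Nitrate 1 and 4. Cd36 counts in Hypoxia were 1.10 to 2.32 times the expected background.

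Scarb1 (ENSMUSG00000037936, chromosome 5, 125277087 to 125341094, minus strand) encodes SR-BI, a receptor for high-density lipoprotein that also sits on the brush border. It stood at 13.2, 8.0, 10.9 and 8.97 CPM across Hypoxia replicates 1 to 4, and at 7.10, 10.8, 12.4 and 4.20 CPM across those of Hypoxia+Nitrate. The groups overlapped, and here Hypoxia+Nitrate 1 and 4 were the lowest of the 8 libraries. The log2 fold change was -0.25 (SE 0.439, edgeR adjusted p = 0.682). In Hypoxia, Scarb1 counts lay between 1.03 and 1.28 times the expected background, close to background in every library. In Hypoxia+Nitrate they were 3.98, 1.77, 2.27 and 2.13 times it; after subtraction the log2 fold change was 0.53 (SE 1.14, limma-voom adjusted p = 0.77). Scarb1 was called lower without Hypoxia+Nitrate 2 and 3 (-0.99, edgeR adjusted p = 0.0441), where 54.6% of all genes were.

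Acsl5 (ENSMUSG00000024981, chromosome 19, 55251938 to 55297720, plus strand) encodes an acyl-CoA synthetase, the enzyme type that activates fatty acids for esterification. It stood at 10.4, 14.7, 10.6 and 7.11 CPM across Hypoxia replicates 1 to 4, and at 257, 25.8, 22.2 and 240 CPM across those of Hypoxia+Nitrate. All Hypoxia+Nitrate libraries were above all Hypoxia libraries, with replicates 1 and 4 far above 2 and 3 on the TMM scale. Acsl5 rose by 3.67 on the log2 scale (SE 0.872, edgeR adjusted p = 0.0151). Counts of Acsl5 in Hypoxia lay at 1.55 to 3.78 times what background would give. Of its exonic length, 91.7% is free of other genes.

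The 3 acyltransferases that build triglyceride rose together. Mogat2 (ENSMUSG00000052396, chromosome 7, 99219084 to 99238619) adds a fatty acid to monoacylglycerol, the first step of resynthesis in the gut; Dgat2 (ENSMUSG00000030747, 99153658 to 99182719) and Dgat1 (ENSMUSG00000022555, chromosome 15, 76502015 to 76511953) add the last one. All 3 are on the minus strand; Mogat2 and Dgat2, members of a single protein family, lie 36364 bp apart, while Dgat1 belongs to another family.

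Mogat2 stood at 3.34, 1.89, 3.11 and 2.11 CPM across Hypoxia replicates 1 to 4, and at 169, 8.64, 8.82 and 136 CPM across those of Hypoxia+Nitrate. Its Hypoxia values were the lowest of the 3 and close together. The log2 fold change was 4.94 (SE 1.03, edgeR adjusted p = 0.00991), the lowest adjusted p of the 9, and Mogat2 was also the gene that passed when any 1 library was left out. Its Hypoxia counts, 26 to 59 per library, were only 1.15 to 1.60 times the expected background, so the size of the rise starts from a level near background.

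Dgat1 stood at 6.41, 13.6, 4.58 and 6.32 CPM across Hypoxia replicates 1 to 4, and at 227, 27.9, 20.1 and 141 CPM across those of Hypoxia+Nitrate. Dgat2 stood at 9.95, 11.1, 5.95 and 7.47 CPM across Hypoxia replicates 1 to 4, and at 215, 23.6, 14.6 and 132 CPM across those of Hypoxia+Nitrate. On the TMM scale, both enzymes showed the same order of libraries within Hypoxia+Nitrate, 1 above 4 above 2 above 3. The groups did not overlap. This order depends on the TMM factors, which were 0.220, 1.65, 2.13 and 0.393 in Hypoxia+Nitrate 1 to 4. By total counts, replicate 4 stood above replicate 1 for both enzymes, and the distance of 1 and 4 from 2 and 3 was smaller. Dgat1 rose by 3.75 (SE 0.839, edgeR adjusted p = 0.0122) and Dgat2 by 3.48 on the log2 scale (SE 0.837, adjusted p = 0.0156). Hypoxia counts were 1.38 to 5.10 times the expected background for Dgat1 and 1.77 to 4.14 times for Dgat2. The ratio of Dgat2 to Dgat1 counts per kb of exon, which no scaling of libraries alters, was 1.20 ± 0.302 in Hypoxia and 0.856 ± 0.102 in Hypoxia+Nitrate (SD, n = 4 per group), with overlapping values. After background subtraction the log2 fold changes were 4.24 (SE 1.88) for Mogat2, 2.79 (SE 1.17) for Dgat1 and 2.03 (SE 1.06) for Dgat2, and none of these passed (limma-voom adjusted p = 0.153, 0.135 and 0.211).

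Plin2 (ENSMUSG00000028494, chromosome 4, 86648386 to 86670060, minus strand) encodes perilipin 2, a protein that coats cytosolic lipid droplets. It stood at 7.21, 4.95, 4.22 and 5.24 CPM across Hypoxia replicates 1 to 4, and at 28.5, 9.61, 11.5 and 53.8 CPM across those of Hypoxia+Nitrate. After TMM scaling the groups did not overlap, but the gap between the highest Hypoxia and the lowest Hypoxia+Nitrate library was narrow. By total counts they overlapped: Plin2 took 401 of 63943036 counts in Hypoxia+Nitrate 1 and 80 of 5345377 in Hypoxia 3. Plin2 rose by 2.26 on the log2 scale (SE 0.581, edgeR adjusted p = 0.0198). Hypoxia counts of Plin2 were 1.10 to 1.70 times the expected background, and after subtraction the log2 fold change was 2.28 (SE 1.13, limma-voom adjusted p = 0.19).

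**Figure D2:**
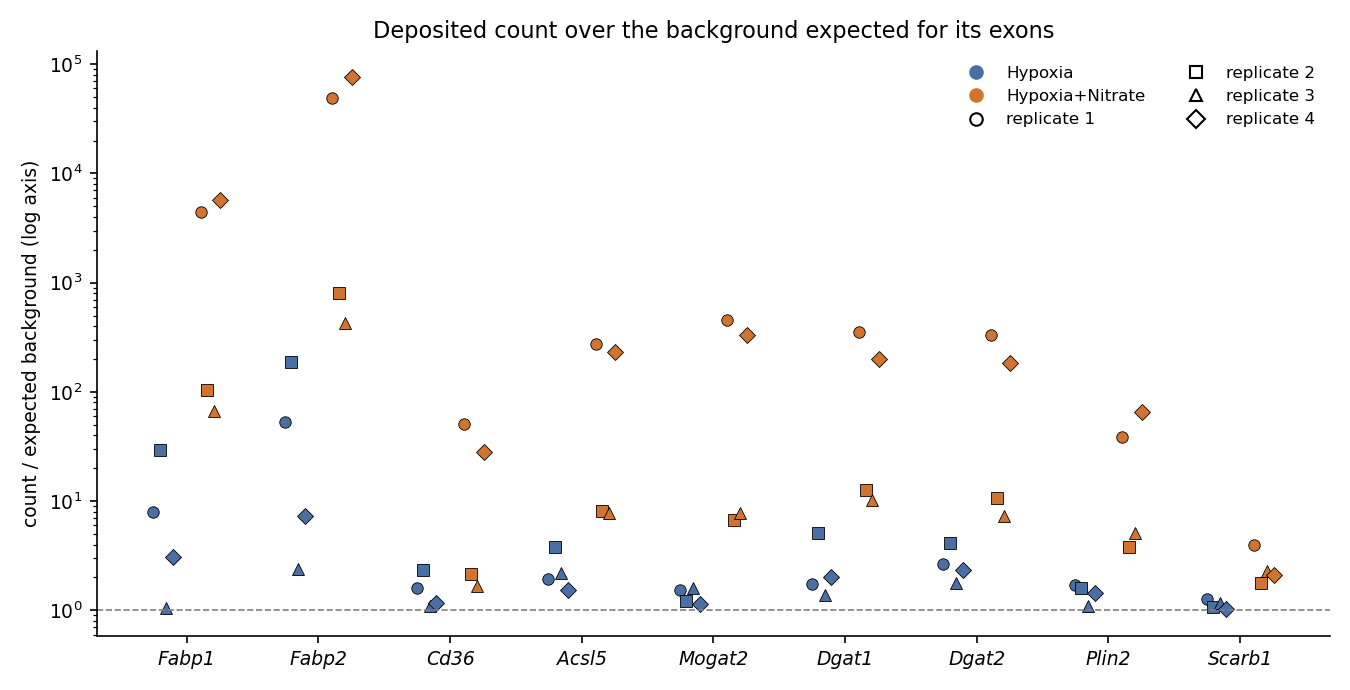
Deposited count of each gene divided by the background expected from receptor genes for its exons (log axis), per library; the dashed line marks a count equal to background. In Hypoxia, Cd36, Mogat2, Plin2 and Scarb1 lie within 2.32 times background in every library, whereas Fabp2 lies at 2.40 times or more.

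Compared per kb of exon, the binding proteins were far ahead of the enzymes. Mean levels in Hypoxia+Nitrate were 7200 CPM per kb for Fabp2 and 597 for Fabp1, followed by Mogat2 (44.0), Dgat1 (34.0), Dgat2 (31.2) and Acsl5 (28.0), and then by Plin2 (7.36), Cd36 (4.98) and Scarb1 (1.02). The ranges of the neighbours from Mogat2 to Acsl5 overlapped: in Hypoxia+Nitrate their libraries ran from 4.71 to 92.3, 6.59 to 74.3, 4.73 to 69.8 and 4.55 to 52.9 CPM per kb. Within Hypoxia+Nitrate 1 to 4, the ratio of Dgat2 to Dgat1 was 0.939, 0.84, 0.718 and 0.926, so Dgat2 was lower in each. The ratio of Mogat2 to Dgat1 went both ways, at 1.24, 0.517, 0.729 and 1.61. Plin2 and Cd36 overlapped likewise. In Hypoxia, Fabp2 (59.5) and Fabp1 (9.87) were again first, but the other 7 means lay between 1.21 and 2.80 CPM per kb.

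The make-up of the set varied between libraries. Fabp2 took 72.1%, 79.7%, 17.8% and 34.8% of the 9 genes' summed counts per kb across Hypoxia replicates 1 to 4, and 89.3%, 84.2%, 79.7% and 91.8% across those with nitrate. Hypoxia 3 and 4 had the flattest profiles, with 8.65% and 4.91% on Scarb1, whose share was at most 0.428% in Hypoxia+Nitrate. Hypoxia 2, the Hypoxia library with the lowest expected background (39.0% of nuclear protein-coding counts), was level with the lowest Hypoxia+Nitrate library. The ratio of Fabp2 to Fabp1 per kb was 6.57, 6.45, 2.29 and 2.37 across Hypoxia replicates 1 to 4, and 11.1, 7.64, 6.33 and 13.2 across those of Hypoxia+Nitrate, so the groups overlapped.

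**Figure D3:**
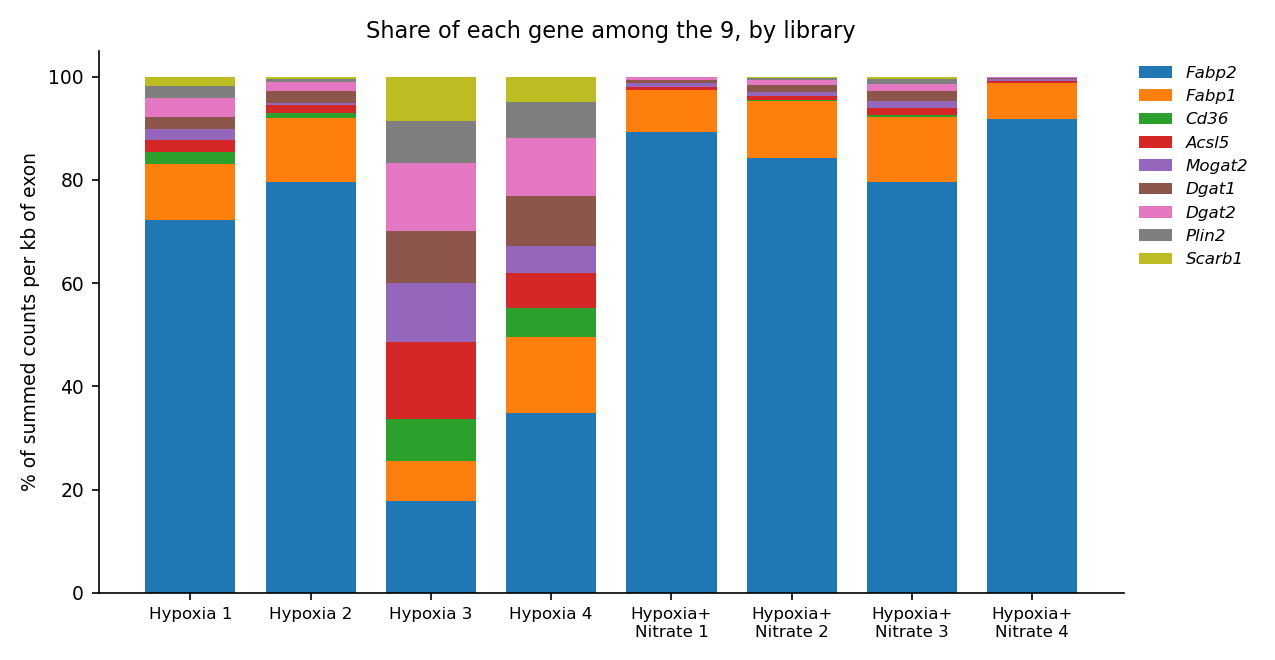
Stacked bars give the percent of the 9 genes' summed counts per kb of exon that each gene took, 1 bar per library. Fabp2 and Fabp1 fill most of every Hypoxia+Nitrate bar and of Hypoxia 1 and 2, while Hypoxia 3 and 4 spread over all 9 genes.

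General epithelial genes rose too. All 12 genes of a pan-epithelial list (Epcam, Cdh1, keratins, villin and others) rose, with a median log2 fold change of 4.72, and their summed level ran from 62.3 to 314 CPM in Hypoxia and from 548 to 12920 CPM in Hypoxia+Nitrate. Their summed counts were 3.64, 13.1, 2.11 and 2.20 times the expected background in Hypoxia 1 to 4. In Hypoxia+Nitrate 1 to 4 they were 2086, 38.1, 30.9 and 2019 times it. By this estimate, a scale set by these genes holds far more background in Hypoxia. When the summed counts of that list took the place of library size, 0 of the 9 genes were called higher and 2, Cd36 and Scarb1, were called lower (edgeR; 0 higher and 2 lower at an unadjusted p of 0.05). Of all genes tested, 0.00564% were called higher and 50.3% lower on that scale. The median of the 9 was -1.86 against -4.15 for all genes tested, and only Fabp1 (0.64, SE 1.19, adjusted p = 0.604) and Fabp2 (1.52, SE 1.23, adjusted p = 0.245) had positive log2 fold changes. Fabp1 held 4.39, 4.49, 0.994 and 2.80 counts per 100 pan-epithelial counts across Hypoxia replicates 1 to 4, and 4.27, 5.49, 4.33 and 5.71 across those of Hypoxia+Nitrate. For Fabp2 these figures were 50.4, 50.5, 3.98 and 11.6 against 82.7, 73.1, 47.9 and 131. Both genes overlapped between groups on this measure, with Hypoxia 3 and 4 the lowest libraries. Dgat2, by contrast, held 8.18, 3.54, 9.36 and 11.98 counts per 100 in Hypoxia and 1.78, 3.12, 2.66 and 1.02 in Hypoxia+Nitrate, with no overlap. Cd36, Acsl5, Dgat1 and Scarb1 also lay lower in every Hypoxia+Nitrate library, which makes 5 of the 9, against 69.9% of all genes tested. After expected background was subtracted from both sides, Cd36, Acsl5 and Dgat2 still did not overlap, while Dgat1 and Scarb1 did. That is 3 of the 9, near the share of 28.9% of genes. The gap was very narrow for Acsl5, with 3.721 in Hypoxia 2 against 3.639 in Hypoxia+Nitrate 3. For Dgat2 it was narrower still, with 2.907 in Hypoxia 2 against 2.902 in Hypoxia+Nitrate 2.

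**Figure D4:**
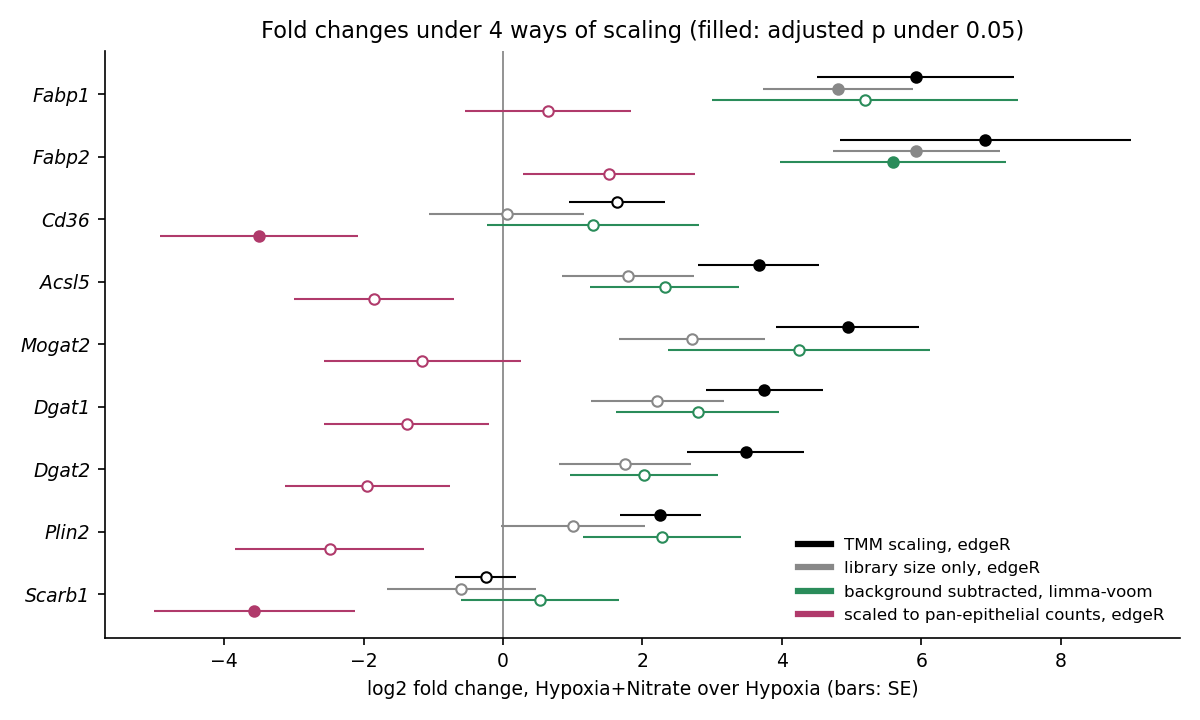
Log2 fold change of Hypoxia+Nitrate over Hypoxia for each gene, with its SE, under TMM scaling (black), library size only (grey), background subtraction with limma-voom (green) and scaling to pan-epithelial counts (magenta); filled points passed an adjusted p of 0.05. From 7 filled points with TMM the number falls to 2 with library size only and 1 after subtraction, and 7 genes lie below 0 on the epithelial scale.

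Scaling set the size of these values. With library size only, Fabp1 (4.81) and Fabp2 (5.93) passed, where 0.686% of all genes were called higher, and the median of the 9 was 1.79 while that of all genes was -1.07. Higher genes made up 48.1% of all calls with TMM, 35.0% with RLE factors, 34.4% with upper-quartile factors, 13.5% with library size only and 0.0112% on the epithelial scale. Relative to the median of all genes tested, the members' median was higher by 4.25 with TMM, 2.86 with library size only, 2.30 on the epithelial scale and 2.25 after background subtraction.

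Related genes of the pathway were taken from lists drawn up alongside the 9; their values are given with TMM scaling only. Of 18 further genes of uptake and activation, 4 rose and 1 fell, with a median of 1.08. Dbi, which encodes the acyl-CoA binding protein, rose by 3.89 (SE 0.868, edgeR adjusted p = 0.0120), Got2, a mitochondrial aminotransferase also described as a membrane fatty acid binding protein, by 1.92, and Slc27a4, the main fatty acid transport protein of the gut, by 4.11. Slc27a3, of the same transporter family, fell by 2.21 on the log2 scale; its counts were 1.91 times the expected background in Hypoxia and 0.944 times in Hypoxia+Nitrate. The synthetases Acsl1 (1.04, adjusted p = 0.148) and Acsl3 (1.49, adjusted p = 0.105) did not pass. Fabp6, the ileal bile acid binding protein, is the remaining riser and was singled out after its values were seen: it stood at 20.03, 0.341, 1.25 and 160 CPM in Hypoxia+Nitrate 1 to 4 and at 0.291 to 0.964 CPM in Hypoxia, so 1 Hypoxia+Nitrate library lay among the Hypoxia values. Hypoxia counts of the risers Dbi, Got2, Slc27a4 and Fabp6 were 3.14, 2.78, 3.11 and 1.26 times the expected background.

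Among 16 tested genes of glycerolipid synthesis outside the set, 4 rose and 1 fell, with a median of 0.16. Gpat4, a glycerol-3-phosphate acyltransferase, rose by 1.81 (SE 0.368, edgeR adjusted p = 0.00945), and Agpat2, which acts at the next step, by 3.55. Agpat3 (1.74) and Lpin3 (2.75) are the other risers, named after their values were seen. Hypoxia counts of Gpat4, Agpat2, Agpat3 and Lpin3 were 1.555, 1.89, 1.96 and 2.03 times the expected background. Gpat3 (1.61, adjusted p = 0.0637) and the lipin Lpin2 (0.30, adjusted p = 0.657) did not pass. Dgat2l6, a relative of Dgat2, was without counts in the nitrate group and was at least 21.9-fold lower there, against a floor of 3 counts per library; Hypoxia counts of Dgat2l6 came to 1.52 times background. Of 18 genes of lipid droplets and lipolysis, 6 rose and 0 fell (median 0.50). Plin3, another droplet coat protein, rose by 4.21, the triglyceride lipase Pnpla2 by 3.83 and the droplet fusion protein Cidec by 2.92.

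Of 10 genes of sterol uptake and fat sensing, 5 rose and 2 fell (median 1.35). Abcg8, a subunit of the sterol exporter of the brush border, rose by 2.17 and Pdzk1, a scaffold that binds the SR-BI protein, by 5.73; only 58.3% of the exonic length of Pdzk1 is free of other genes, so its counts are less certain. The other risers, named after their values were seen, were the sterol importer Npc1l1 (4.01), Abcg5 (2.72) and the sterol esterifying enzyme Soat2 (2.74). Hypoxia counts of Abcg8, Pdzk1, Npc1l1, Abcg5 and Soat2 were 3.03, 1.72, 2.09, 2.135 and 2.10 times the expected background. The fat-sensing receptors Ffar1 and Gpr119 were the ones that fell, Ffar1 by 3.41 on the log2 scale and Gpr119 at least 11.2-fold, with Hypoxia counts of 1.90 and 1.62 times the expected background. Among 16 transcription factors that regulate lipid genes, 8 rose and 0 fell (median 2.05). Hnf4a, a driver of enterocyte genes, stood at 19.3, 37.1, 9.80 and 14.3 CPM in Hypoxia and 551, 83.9, 72.7 and 532 CPM in Hypoxia+Nitrate (log2 fold change 3.94, SE 0.884, edgeR adjusted p = 0.0122). Creb3l3 rose by 4.39 and Nr1h2 by 2.70, while Ppara, the fatty acid receptor that controls several of the 9 genes, did not pass (0.86, adjusted p = 0.138). Hypoxia counts of Hnf4a, Creb3l3 and Nr1h2 were 3.73, 2.27 and 1.43 times the expected background.

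**Figure D5:**
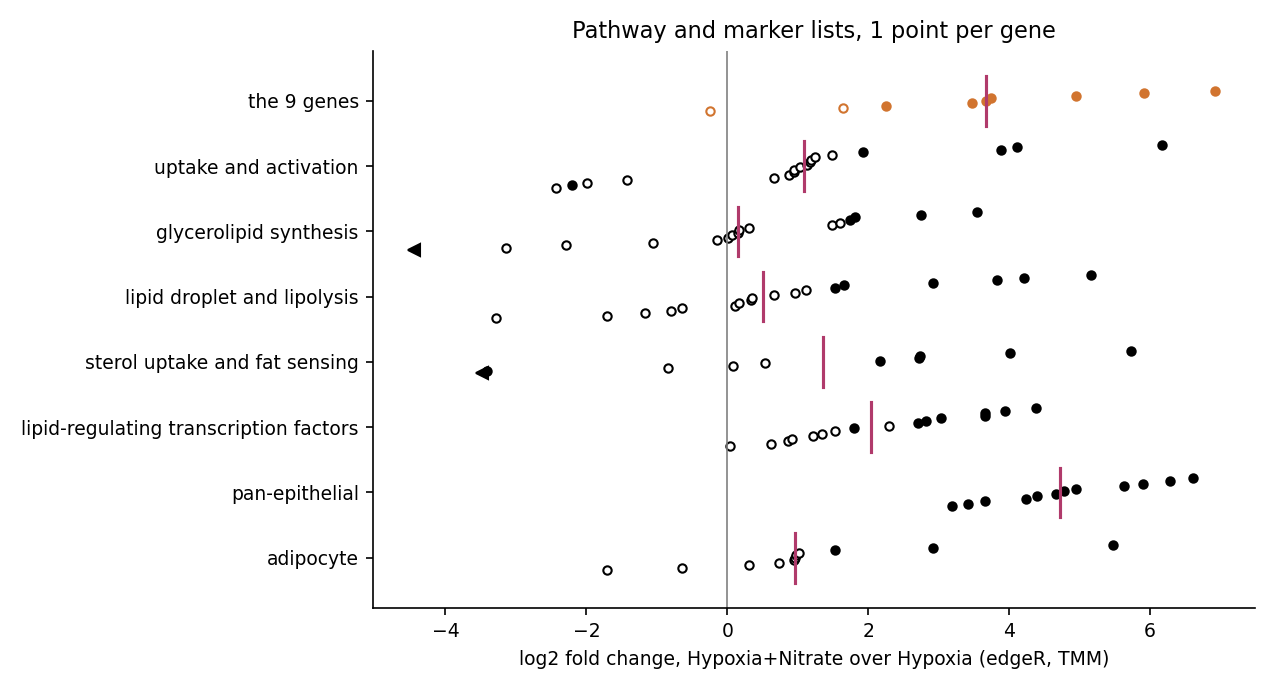
Log2 fold change (edgeR, TMM) of every tested gene in the 9-gene set, the 5 related lists, the pan-epithelial list and the adipocyte markers; filled points passed an adjusted p of 0.05, magenta bars are list medians, and left-pointing triangles are bounds for genes with no count in Hypoxia+Nitrate. The medians of the 9 genes (3.67) and of the pan-epithelial list (4.72) lie to the right of those of the related lists (0.16 to 2.05).

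Other cells that make some of the 9 genes were checked by their markers. Of 11 tested adipocyte markers 3 rose (Cidec, Lipe and Pck1) and 0 fell; Adipoq, the defining one, stood at 2.003 to 4.16 CPM in Hypoxia and 0 to 2.73 CPM in Hypoxia+Nitrate, and Lep at no more than 1.27 CPM in any library. Among the tested adipocyte markers that did not pass, log2 fold changes were positive for Retn (1.02), Cfd (0.98), Plin1 (0.96), Fabp4 (0.95), Car3 (0.74) and Lpl (0.305). They were negative for Adipoq (-1.70) and Plin4 (-0.65). The summed level of the adipocyte markers was 135 to 179 CPM in Hypoxia and 233 to 1987 CPM in Hypoxia+Nitrate, where Pck1 alone, which enterocytes also make, held 1640 and 654 CPM in replicates 1 and 4. Endothelial markers rose for 0 of 7 and fell for 1 (69.1 to 82.8 CPM against 30.4 to 122), and macrophage markers rose for 2 of 8 (33.0 to 45.7 against 40.5 to 108). Smooth muscle markers rose for all 8, from 81.3 to 453 CPM to 1427 to 3089 CPM, with Hypoxia+Nitrate 2 the highest for 8 of 8. Pancreatic markers, checked because the extraction protocol speaks of islets, summed to 14.6 to 28.6 CPM in Hypoxia and 5.19 to 14.04 CPM in Hypoxia+Nitrate. Liver markers rose for 0 of 6 and fell for 0 (55.4 to 179 CPM against 102 to 240). Fibroblast markers rose for 2 of 7 (86.2 to 109 against 141 to 210). Markers of lymphocytes and plasma cells rose for 2 of 7 (53.2 to 69.3 against 84.8 to 198). Summed Hypoxia counts of these 3 lists were 7.06, 1.96 and 1.49 times the expected background. The part of all these cells in the changes of the 9 genes was not tested.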

How the data were processed

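Total RNA of small intestine was sequenced from 8 samples, 4 per group, grouped and numbered by their titles. Per the submitters' processing notes, HISAT, featureCounts 1.5.0-p3, DESeq 1.8.3 and build GRCm38 were used. The authors deposited whole-number counts per gene; the strand setting is not given in the sources used here, so overlapping genes are less certain. From these counts, edgeR 4.0.16 in R 4.3.3 was run with filterByExpr (minimum count 10, total 15), TMM factors; groups were compared by its quasi-likelihood test, and p-values were adjusted over all genes tested by Benjamini-Hochberg (threshold 0.05). Standard errors were derived from the fold change and its F statistic. CPM (counts scaled to library size) carry TMM factors, which ran from 0.220 in Hypoxia+Nitrate 1 to 3.69 in Hypoxia 3. Expected background is the count density of 1468 autosomal receptor genes, per kb of exon free of other genes, multiplied by a gene's own such length (factor 0.5 on X and Y); that these genes are silent was not tested. Alternatives used other scalings and filters, DESeq2 1.42.0, limma 3.58.1, a replicate block, subtraction of background, and fits without single libraries or pairs. The members and lists were chosen with earlier results of these data known. Named further genes are the up to 3 called genes of each list with the lowest p, every called lower gene, and Slc27a4, Acsl1, Acsl3, Gpat3, Gpat4, Lpin2, Plin3, Ppara and Hnf4a. The edgeR fit was tested on simulated counts with set fold changes. That simulation held no background, and it did not cover the other steps.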

Additional observations from a re-analysis of the deposited data

How the results depend on the processing

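The number of all genes called, 8653, was 1800 with library size only, 17817 with pan-epithelial scaling, 16708 without a filter, 22228 with DESeq2, 15818 with limma-voom, 20696 with quality weights, 2018 after background subtraction and 4227 without Hypoxia 1 and 2. Leaving out 1 library at a time gave 1932 to 22454 genes, 1 to 8 of the 9 members called higher, and a member median of 3.04 to 4.21. With the replicate block 4791 genes were called, of which 2176 of 35431 tested were higher, and 5 of the 9 members were called higher. Samples with the same number correlated at -0.182 to 0.184, and 3 of 8 libraries correlated best with their own number. With 4 libraries per group, these values cannot tell whether samples with the same number shared a batch. The labels state no pairing. The number of members called higher, 7 (11.7% of all genes), was 2 with library size only (0.686%) and 0 with pan-epithelial scaling (0.00564%). It was 1 after background subtraction (4.23%) and 4 without Hypoxia+Nitrate 1 and 4 (10.1%). Without Hypoxia 1 and 2 it was 0 (7 at an unadjusted p of 0.05, edgeR), where 624 of 41205 genes were called higher. For counts at an unadjusted p, the share of all genes was not computed. The member median, 3.67, was 1.79 with library size only, -1.86 with pan-epithelial scaling and 1.24 without Hypoxia+Nitrate 1 and 4. Pan-epithelial scaling turned the log2 fold changes of Cd36 (-3.50), Acsl5 (-1.86), Mogat2 (-1.16), Dgat1 (-1.38), Dgat2 (-1.95) and Plin2 (-2.49). Without Hypoxia+Nitrate 1 and 4, Cd36 (-0.22) and Scarb1 (0.28) turned. With background subtracted, which also meant limma-voom for edgeR and 14974 genes tested in place of 35431, Scarb1 (0.53) and the median of all genes (0.0678) turned. The next 3 alternatives were chosen after seeing the data. Without Hypoxia+Nitrate 2 and 3, 31880 genes were called. Subtraction with pan-epithelial scaling called 0 members higher, where 19 of 14974 genes were. The member median there was -1.44, with Cd36 at -2.76, Acsl5 at -1.44, Dgat1 at -1.10, Dgat2 at -1.79 and Plin2 at -1.71. Pan-epithelial scaling without Ezr called 17568 genes. It called 0 members higher, where 2 of 35431 genes were. The member median was -1.72, with Cd36 at -3.37, Acsl5 at -1.72, Mogat2 at -0.99, Dgat1 at -1.26, Dgat2 at -1.81 and Plin2 at -2.39. The cause was not tested for any of these. In Hypoxia, counts of Cd36, Mogat2, Plin2 and Scarb1 lay within 2.32 times the expected background.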

Other observations

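The genes outside the lists whose pattern was most like the mean log2 CPM of the 9 genes, over 8 libraries and among 14825 candidates, were Selenop (Pearson r 0.998), mt-Co3 (0.997), mt-Atp6 (0.997), mt-Co1 (0.996) and Cyb5r3 (0.996). These are descriptions over libraries that share their scaling. Selenop, which encodes a secreted selenium carrier, stood at 36.6, 41.2, 9.75 and 16.4 CPM in Hypoxia 1 to 4 and at 1772, 97.2, 68.9 and 1421 CPM in Hypoxia+Nitrate 1 to 4. As in 8 of the 9 genes, Hypoxia+Nitrate 1 and 4 were the high libraries. Each of the 9 genes correlated with the mean of the other 8 at 0.88 to 0.99, except Scarb1 at -0.71.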
